A study of Mus musculus with 3 samples.

Results

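The nuclear-encoded genes of the respiratory chain and ATP synthase were followed in differentiated C2C12 cells in which Tead4 was knocked down. A gene entered when its symbol began with Nduf followed by a subunit letter (a, b, c, s or v) and a number, with Uqcr, with Cox4 to Cox8 or with Atp5, or was Sdha, Sdhb, Sdhc or Sdhd, and when it had at least 50 reads summed over the 3 libraries. Of 20162 genes in the count table, 82 matched by symbol and 79 also reached the minimum. By complex these were 36 genes of complex I, 4 of complex II, 7 of complex III, 15 of complex IV and 17 of complex V. The lowest included totals were 187 reads for Atp5s, 211 for Cox7a1 and 401 for Atp5sl. The highest total left out was 10 reads, for Ndufa4l2. Both Cox4i2 and Cox7b2 had 0 reads in each of the 3 libraries. The isoform genes Cox6b2 and Cox8c were not analysed here.

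C2C12 cells are mouse myoblasts that form multinucleate myotubes in low serum. Tead4 codes for a DNA-binding transcription factor of the TEAD family, and the study asked what its loss does to gene expression in such cells. The libraries are called Tead4 shRNA A, Tead4 shRNA B and control shRNA here, after the short hairpin RNA that a lentivirus delivered. Each came from a puromycin-selected population of infected cells, not from a clone, after 7 days in medium with 2% horse serum. Polyadenylated RNA was sequenced as single-end reads with a kit that does not mark the strand, and each shRNA has 1 library. The 2 Tead4 libraries therefore differ in the hairpin they carry. The spread behind an edgeR p-value comes from these 2 libraries alone. It rests mostly on a value pooled over all tested genes (20.9 prior degrees of freedom) and little on the gene's own spread (1 residual degree of freedom). No repeat of a hairpin or of the control enters it. In such bulk samples, fewer cells of a type and less RNA per cell cannot be told apart.

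The inner mitochondrial membrane carries 4 electron-transferring complexes and the ATP synthase, often called complex V. Complexes I, III and IV pump protons while passing electrons on to oxygen, complex II feeds in electrons from succinate, and complex V uses the proton gradient to make ATP. Most subunits come from the nucleus and a small set of core subunits from mitochondrial DNA, so an assembled complex needs both genomes. Complex IV, cytochrome c oxidase, has subunits with separate isoforms, and in rodents Cox6a2, Cox7a1 and Cox8b are the isoforms of heart and skeletal muscle, with Cox6a1, Cox7a2 and Cox8a in most other tissues.

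The table held 19918954 reads for Tead4 shRNA A, 15594305 for Tead4 shRNA B and 16412139 for control shRNA. Tead4 had 397 reads with shRNA A, 170 with shRNA B and 1256 with control shRNA, and its level fell with -2.35 as log2 fold change (SE 0.27, adjusted p = 2.82e-06, edgeR quasi-likelihood test with Benjamini-Hochberg adjustment). The markers of differentiated muscle cells were present in every library, with summed levels of 12534, 15057 and 21405 CPM (reads scaled to library size) in Tead4 shRNA A, Tead4 shRNA B and control shRNA. Of 10 such markers, 5 fell and 0 rose by that test, with log2 fold changes of -1.63 for Myh3, -1.08 for Myl1, -1.15 for Tnnt3 and -1.44 for Myog. Of 8 markers of cycling or undifferentiated cells, 6 rose and 1 fell (1.91 for Top2a, 2.59 for Mki67, 1.08 for Id1 and -1.35 for Myf5), and their summed levels were 196.6 CPM with shRNA A, 196.7 with shRNA B and 92.8 in the control. Markers of adipocytes, endothelial cells and macrophages summed to between 0.56 and 7.78 CPM in every library, and the 2 tested, Pparg and Cd68, were not called. The part that these shifts in muscle and cycling markers have in any value below was not tested.

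The respiratory chain genes had, as a group, a level near that of the control. Together they took 0.945% of all reads with Tead4 shRNA A (95% exact binomial interval 0.941 to 0.949), 1.123% with Tead4 shRNA B (1.118 to 1.128) and 0.9996% with control shRNA (0.995 to 1.004). The summed level was 9356 CPM with shRNA A, 11114 CPM with shRNA B and 10217 CPM in the control. The control library lay between the 2 knockdown libraries in both measures. All 79 genes passed the low-count filter and entered the test across 14478 genes. Of these 79, 0 were called higher by edgeR at an adjusted p under 0.05, where 5.34% of all tested genes were, and 1 had an unadjusted p under 0.05 in that direction. DESeq2 also called 0 higher. In the other direction 1 member, Cox7a1, was called lower, where 4.48% of all tested genes were, and 5 had an unadjusted p under 0.05. The median log2 fold change over the members was -0.04, beside 0.02 over all tested genes, and single members ranged from -1.41 to 0.48. The sign of the members' median, which is near 0, changes when the libraries are scaled by total reads. It is then 0.0069, beside 0.06 over all tested genes.

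The member that fell, Cox7a1, codes for the heart and muscle isoform of subunit VIIa of complex IV. It had 39 reads with Tead4 shRNA A, 56 with Tead4 shRNA B and 116 with control shRNA, or 1.94 CPM with shRNA A, 3.55 with shRNA B and 7.22 in the control. Both knockdown libraries lay below the control and shRNA A was the lower. Its log2 fold change was -1.41 (SE 0.42, adjusted p = 0.0364, edgeR quasi-likelihood test with Benjamini-Hochberg adjustment). The call was lost with RLE scaling, upper-quartile scaling and DESeq2, at nearly the same fold change, and the adjusted p ran from 0.00539 to 0.302 over all alternatives. Its counterpart Cox7a2, the isoform of most other tissues, had 1689 reads with shRNA A, 1768 with shRNA B and 1286 in the control, or 84.0 CPM with shRNA A, 112.2 with shRNA B and 80.1 in the control, with a log2 fold change of 0.29 (adjusted p = 0.538, edgeR).

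The other muscle isoforms also had lower CPM in both knockdown libraries, without passing the test. Cox8b, the muscle isoform of subunit VIII, had 151 reads with Tead4 shRNA A, 155 with Tead4 shRNA B and 240 with control shRNA, with -0.79 as log2 fold change (SE 0.30, adjusted p = 0.107, edgeR). Cox8a, its general counterpart, had 2635 reads with shRNA A, 2012 with shRNA B and 1489 in the control and the highest log2 fold change of all 79 members, 0.48 (SE 0.23, adjusted p = 0.217, edgeR). In this pair the knockdown libraries were low for the muscle gene and high for the general gene. Cox6a2, the muscle isoform of subunit VIa, had 527 reads with shRNA A, 540 with shRNA B and 726 in the control and -0.58 as log2 fold change (SE 0.24, adjusted p = 0.140, edgeR). Cox6a1 had 3717 reads with shRNA A, 2614 with shRNA B and 2087 in the control and 0.43 as log2 fold change (SE 0.23, adjusted p = 0.295, edgeR). Cox6a2 overlaps an exon of Itgad on the other strand, and reads from the overlapped stretch cannot be assigned to either gene.

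Set against its counterpart within a library, each muscle isoform took a smaller share in both knockdown libraries, a measure that no library scaling can move. Cox7a1 took 2.26% of the reads of the pair Cox7a1 and Cox7a2 with Tead4 shRNA A (95% exact binomial interval 1.61 to 3.07), 3.07% with Tead4 shRNA B (2.33 to 3.97) and 8.27% with control shRNA (6.88 to 9.84). Cox8b took 5.42% of Cox8b and Cox8a with shRNA A (4.61 to 6.33), 7.15% with shRNA B (6.10 to 8.32) and 13.9% in the control (12.3 to 15.6). Cox6a2 took 12.4% of Cox6a2 and Cox6a1 with shRNA A (11.4 to 13.4), 17.1% with shRNA B (15.8 to 18.5) and 25.8% in the control (24.2 to 27.5). In all 3 pairs the order was shRNA A lowest, shRNA B next and control highest. Tead4 itself was lowest with shRNA B, at 10.8 CPM, beside 19.7 CPM with shRNA A and 78.2 CPM in the control. For the shares, the intervals of both knockdown libraries lay below that of the control. The intervals of shRNA A and shRNA B overlapped for Cox7a1 and Cox8b and did not for Cox6a2. These shares are of reads and are not corrected for transcript length, so they show a change between libraries and not the ratio of transcripts. The intervals cover counting error only, and the control has 1 library. Over the same libraries the 10 myotube markers had a median log2 fold change of -0.82, and their part in these shares was not tested.

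**Figure D1:**
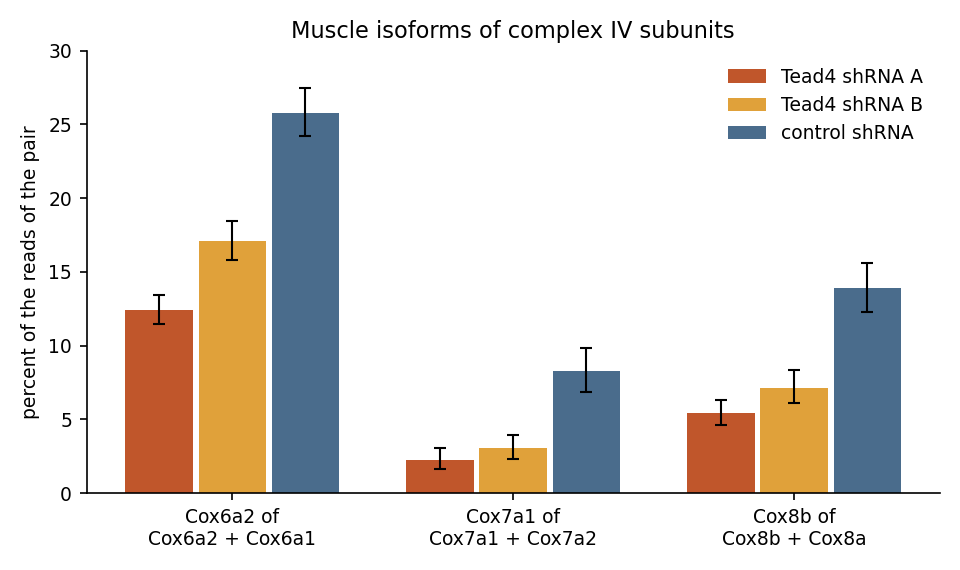
Share of reads taken by the muscle isoform in each pair of complex IV isoforms, in percent, for Tead4 shRNA A, Tead4 shRNA B and control shRNA (1 library each; error bars are 95% exact binomial intervals and cover counting error only). In each pair both knockdown bars stand below the control bar, for Cox7a1 at 2.26% in shRNA A and 3.07% in shRNA B against 8.27% in the control.

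The promoters of 5 of these 6 isoform genes are shown because the muscle and general isoforms differed in their ratios to the control. The other gene is Cox6a2. The sequences run from 250 bases before to 50 bases after the annotated start, 5′ to 3′ along the gene's strand, from RefSeq on GRCm38.p6, which is not the build of the deposited counts. Capitals mark matches to any of 5 motifs searched on both strands.
Cox7a1, chr7:30183921-30184220, plus strand: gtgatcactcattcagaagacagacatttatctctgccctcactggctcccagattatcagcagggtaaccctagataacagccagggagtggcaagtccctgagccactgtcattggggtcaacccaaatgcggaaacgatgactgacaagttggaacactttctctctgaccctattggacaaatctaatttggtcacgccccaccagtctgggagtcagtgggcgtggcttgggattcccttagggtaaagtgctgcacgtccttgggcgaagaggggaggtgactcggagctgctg
Cox7a2, chr9:79759804-79760103, minus strand: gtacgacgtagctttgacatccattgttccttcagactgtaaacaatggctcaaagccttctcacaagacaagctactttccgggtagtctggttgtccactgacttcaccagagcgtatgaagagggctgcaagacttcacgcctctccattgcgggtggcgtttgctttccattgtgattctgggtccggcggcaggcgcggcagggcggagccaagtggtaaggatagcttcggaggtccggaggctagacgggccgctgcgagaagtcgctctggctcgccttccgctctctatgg
Cox8b, chr7:140900397-140900696, minus strand: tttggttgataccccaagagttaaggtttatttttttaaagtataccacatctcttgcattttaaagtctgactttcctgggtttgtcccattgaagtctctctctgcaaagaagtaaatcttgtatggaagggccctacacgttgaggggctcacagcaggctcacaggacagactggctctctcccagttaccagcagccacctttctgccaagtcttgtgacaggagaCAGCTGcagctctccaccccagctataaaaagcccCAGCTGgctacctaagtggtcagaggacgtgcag
Cox8a, chr19:7217567-7217866, minus strand: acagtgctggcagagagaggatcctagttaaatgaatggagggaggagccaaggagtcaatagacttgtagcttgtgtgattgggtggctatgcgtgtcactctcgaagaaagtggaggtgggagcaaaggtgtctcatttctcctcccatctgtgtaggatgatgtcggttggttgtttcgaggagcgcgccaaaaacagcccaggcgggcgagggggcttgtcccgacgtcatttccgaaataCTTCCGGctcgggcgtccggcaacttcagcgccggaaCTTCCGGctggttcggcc
Cox6a1, chr5:115348909-115349208, minus strand: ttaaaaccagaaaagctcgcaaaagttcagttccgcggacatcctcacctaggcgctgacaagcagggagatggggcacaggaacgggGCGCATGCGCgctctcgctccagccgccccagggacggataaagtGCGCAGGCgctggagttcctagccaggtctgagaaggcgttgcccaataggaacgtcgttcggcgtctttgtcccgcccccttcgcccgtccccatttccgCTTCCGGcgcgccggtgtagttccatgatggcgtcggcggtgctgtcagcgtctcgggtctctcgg
The motifs were CAGCTG (an E-box of the kind that myogenic factors bind), GGAATG (the core of the TEAD site), AAGGTCA (a site of estrogen-related receptors), GCGCANGC (the core of the NRF1 site) and CCGGAAG (the core of the ETS site). The Cox8b window holds CAGCTG at bases 232 and 267, counted from the first base printed. The Cox8a window holds CCGGAAG on its other strand at bases 246 and 283. The Cox6a1 window holds GCGCANGC at bases 89 and 134 and, on its other strand, at base 91, where it overlaps the match at base 89, and CCGGAAG on its other strand at base 235. The Cox7a1 and Cox7a2 windows hold 0 matches to the 5 motifs, and GGAATG is in none of the 5 windows. These are matches of letters only.

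For 64 of the 79 members the RefSeq table had a promoter, 70 windows in all. GCGCANGC was in 34.3% of the member windows (24) and in 9.95% of all 32851 windows of the same length. CCGGAAG was in 22.9% of member windows (16) and 8.86% of all. AAGGTCA was in 11.4% of member windows (8) and 4.72% of all, GGAATG in 11.4% (8) and 14.7% of all, and CAGCTG in 8.57% (6) and 16.3% of all. NRF1 and the ETS factor GABP are known regulators of nuclear respiratory genes. The letters of NRF1, ETS and estrogen-related receptor sites stood in a larger share of member windows than of all windows, and those of TEAD and E-box sites in a smaller share, and these differences were not tested.

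When each knockdown library was set against the control library on its own, the members lay mostly below the control with Tead4 shRNA A and mostly above it with Tead4 shRNA B. These ratios of scaled counts each compare 2 libraries and have no replicate check, and both use the same control library. With shRNA A the median log2 ratio of the 79 members was -0.20 (quartiles -0.36 and -0.03), beside -0.00011 over all 13449 genes with the same minimum of reads. Of the members, 62 were below the control, beside 6728 of all 13449 genes, and for 49 (62.0%) the exact 95% interval also lay below it, where this held for 33.8% of all genes. With shRNA B the median was 0.10 (quartiles -0.05 and 0.22), beside 0.01 over all genes, and 56 members were above the control, beside 6917 of all genes. The interval lay above the control for 37 (46.8%), where this held for 30.7% of all genes. An exact interval narrows as a gene's reads increase, so such shares depend on read number as well as on the ratio. All genes were not matched to the members in reads.

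Few members differed from the control by 1.5-fold or more. With shRNA A, 0 members were at least 1.5-fold higher with an exact 95% interval that excludes no change, where 15.8% of all genes were, and 8 (10.1%) were lower, where 12.6% of all genes were. These 8 were Ndufa3, Ndufa4, Ndufs4, Uqcr, Cox6a2, Cox7a1, Cox8b and Atp5k. With shRNA B, 1 member, Sdhd, was higher, where 11.8% of all genes were, and 2, Cox7a1 and Cox8b, were lower, where 9.76% of all genes were. The counts lower with shRNA A are near the background and the others are under it.

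**Figure D2:**
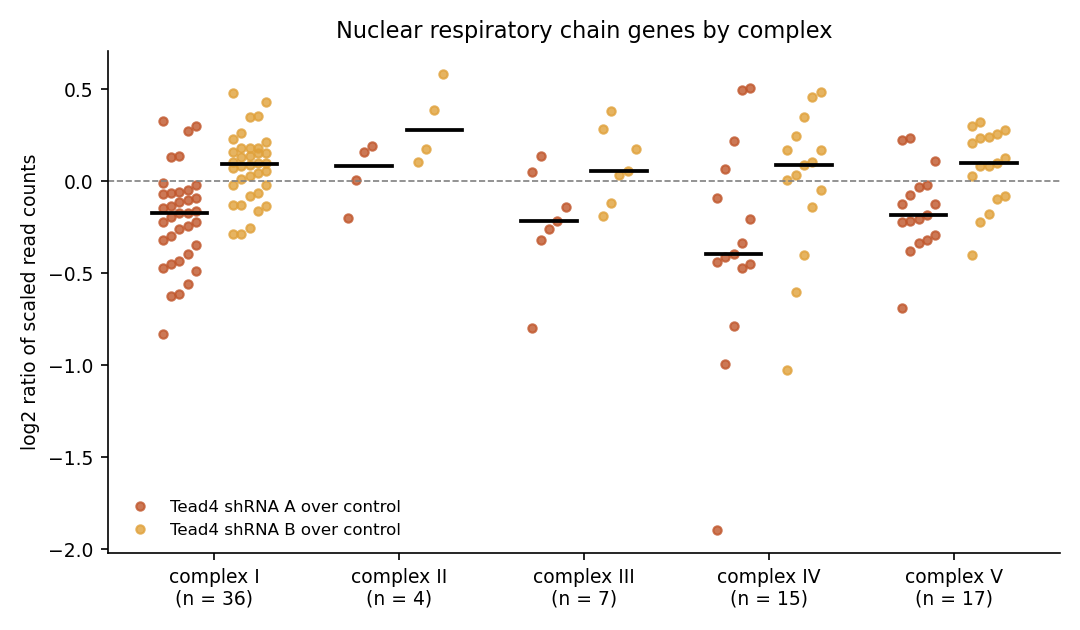
Log2 ratio of scaled read counts, Tead4 shRNA A over control and Tead4 shRNA B over control, for the 79 members by complex; each point is 1 gene, black bars are medians and the dashed line is the control level. The medians lie below 0 with shRNA A in complexes I, III, IV and V and above 0 with shRNA B in every complex, and the lowest point is Cox7a1 at -1.90.

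The direct ratio of the knockdown libraries does not use the control library. Tead4 shRNA A was lower than Tead4 shRNA B for 71 of 79 members, beside 6718 of 13449 genes. The exact interval lay wholly below no difference for 62 members (78.5%), where this held for 26.1% of all genes. These shares depend on read number too, and all genes were not matched to the members in reads. The median log2 ratio of shRNA A over shRNA B was -0.30 (quartiles -0.42 and -0.14), beside 0.00038 over all genes, and members ranged from -0.87 to 0.19. A difference of at least 1.5-fold was found for 8 members lower with shRNA A (10.1%), where 4.74% of all genes were, and for 0 members higher, where 5.30% were. The 8 were Ndufa4, Ndufa5, Uqcr, Cox5a, Cox6c, Cox7a1, Cox7c and Atp5g3. Each hairpin has 1 library, and a difference between hairpins and one between cultures cannot be told apart.

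**Figure D3:**
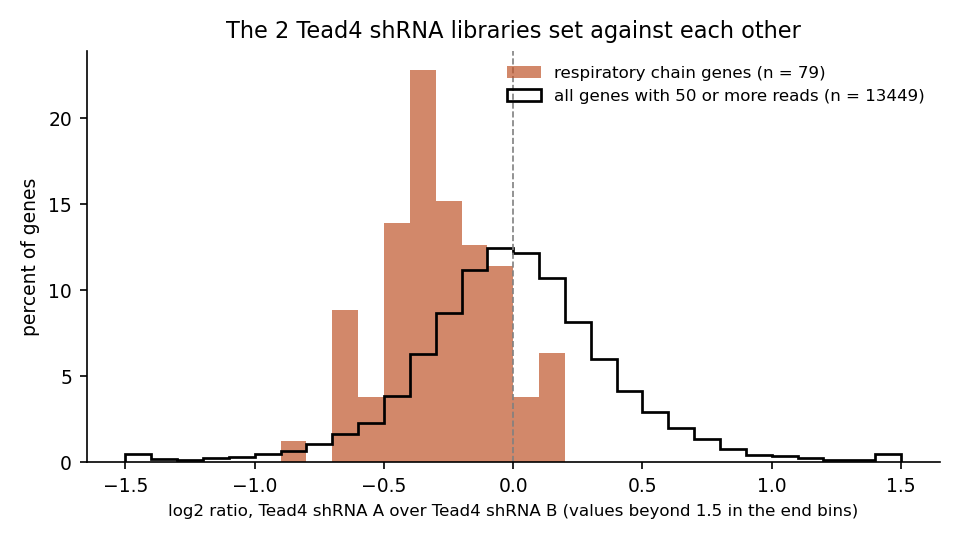
Distribution of the log2 ratio of Tead4 shRNA A over Tead4 shRNA B for the 79 respiratory chain genes (filled bars) and for all 13449 genes with at least 50 reads (outline), as percent of genes in each bin; values beyond 1.5 are in the end bins. The members centre on -0.30 and all genes on 0.00038.

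Transcript length, GC content and shared sequence were looked at beside this shift. The members are short, with a median transcript length of 680 bases against 2017 over all genes with a known length. Genes under 1000 bases had a median log2 ratio of shRNA A over shRNA B of -0.08 (2970 genes), and members under 1000 bases had -0.30 (59 genes). Members of 1000 bases or more had -0.26 (20 genes), beside 0.02 over the 10003 such genes. A length here is a median over annotated coding transcripts, incomplete ones included, so some genes may stand in the wrong length class. Across the 79 members Spearman's rho between length and the log2 ratio of shRNA A over shRNA B was 0.17. Across all 12973 genes with a length it was 0.20. For GC content, the percent of G and C bases in a transcript, rho with the same ratio was 0.26 across the members and 0.27 across all 12973 genes. The part of length or GC content in the shift was not tested. In a later annotation, 20 members share more than 10% of their 72-base stretches with another gene and 29 overlap an exon of one. The 38 members with no overlap and under 1% shared had medians of -0.16 for shRNA A over control, 0.11 for shRNA B over control and -0.29 for shRNA A over shRNA B.

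Complex I, NADH dehydrogenase, is the entry point for electrons from NADH. Its 36 genes had median log2 ratios of -0.17 for Tead4 shRNA A over control, 0.09 for Tead4 shRNA B over control and -0.30 for shRNA A over shRNA B, and 0 were called by edgeR in either direction, with Ndufs4 alone at an unadjusted p under 0.05. The 7 genes of the catalytic core had medians of -0.11, 0.16 and -0.24 in the same comparisons, and the 29 accessory genes -0.20, 0.09 and -0.31.

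Ndufs4, an accessory subunit whose loss causes complex I deficiency in mouse and human, had the lowest log2 fold change of complex I. It had 896 reads with Tead4 shRNA A, 1043 with Tead4 shRNA B and 1269 with control shRNA, or 44.5 CPM with shRNA A, 66.2 with shRNA B and 79.0 in the control, with -0.52 as log2 fold change (SE 0.24, adjusted p = 0.203, edgeR). Ndufb7, an accessory subunit that faces the intermembrane space, had the highest, with 2705 reads with shRNA A, 2359 with shRNA B and 1721 in the control and 0.41 as log2 fold change (SE 0.23, adjusted p = 0.322, edgeR). Both knockdown libraries were below the control for Ndufs4 and above it for Ndufb7. Ndufa4, named as a complex I subunit and since found in complex IV, had 1813 reads with shRNA A, 2153 with shRNA B and 2226 in the control, and its log2 ratio to the control was -0.62 with shRNA A (exact 95% interval -0.71 to -0.53) and -0.02 with shRNA B (-0.11 to 0.07). Of the 3 libraries, shRNA A was the low one. Its paralogue Ndufa4l2 had 4 reads with shRNA A, 0 with shRNA B and 6 in the control, which is 0.220% of the pair with shRNA A, 0% with shRNA B and 0.269% in the control, and the 0 reads of shRNA B allow a share of up to 0.139%.

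Complex II, succinate dehydrogenase, is also an enzyme of the tricarboxylic acid cycle and is built from nuclear genes only. Its 4 genes had medians of 0.09 for Tead4 shRNA A over control, 0.28 for Tead4 shRNA B over control and -0.34 for shRNA A over shRNA B. It was the complex whose median lay above the control in both libraries. Sdhd, a membrane anchor, had 2524 reads with shRNA A, 2602 with shRNA B and 1766 in the control, or 125.5 CPM with shRNA A, 165.1 with shRNA B and 110.0 in the control, with 0.40 as log2 fold change (SE 0.24, adjusted p = 0.356, edgeR). Sdha, the flavoprotein that oxidises succinate, had 5472 reads with shRNA A, 4331 with shRNA B and 3906 in the control and a log2 fold change of 0.17 (adjusted p = 0.760, edgeR). Sdhc, the other anchor, had 2292 reads with shRNA A, 2218 with shRNA B and 2103 in the control and a log2 fold change of -0.04 (adjusted p = 0.953, edgeR). The iron-sulfur subunit gene Sdhb had log2 ratios to the control of 0.01 in shRNA A and 0.39 in shRNA B.

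Complex III, the cytochrome bc1 complex, passes electrons from ubiquinol to cytochrome c. Its 7 genes had medians of -0.21 for Tead4 shRNA A over control, 0.06 for Tead4 shRNA B over control and -0.25 for shRNA A over shRNA B, and all 7 were lower with shRNA A than with shRNA B. The core proteins Uqcrc1 and Uqcrc2 and the Rieske protein Uqcrfs1 had medians of -0.14, 0.18 and -0.20 in these comparisons, and the 4 small subunits -0.26, -0.04 and -0.29. Uqcr, the smallest subunit and now called Uqcr11, had 1072 reads with shRNA A, 1281 with shRNA B and 1487 in the control, or 53.3 CPM with shRNA A, 81.3 with shRNA B and 92.6 in the control. Its log2 fold change was -0.46 (SE 0.24, adjusted p = 0.277, edgeR), and shRNA A stood apart from the other two libraries. Uqcrh, the hinge protein at the cytochrome c site, had 2058 reads with shRNA A, 2033 with shRNA B and 1587 in the control and a log2 fold change of 0.23 (adjusted p = 0.653, edgeR). Uqcrc1 had 3778 reads with shRNA A, 3272 with shRNA B and 2738 in the control and a log2 fold change of 0.21 (adjusted p = 0.679, edgeR).

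Complex IV had the lowest median of the 5 complexes with Tead4 shRNA A, at -0.39 for 15 genes, beside 0.09 for Tead4 shRNA B over control and -0.39 for shRNA A over shRNA B. The 3 muscle isoforms had medians of -0.99 and -0.60 for shRNA A and shRNA B over control, and their 3 general counterparts 0.50 and 0.46. Without the isoform pairs, 7 subunit genes remain, Cox4i1, Cox5a, Cox5b, Cox6b1, Cox6c, Cox7b and Cox7c. All 7 were below the control with shRNA A, with a median of -0.41, and 6 of 7 were above it with shRNA B, with a median of 0.11. Their median for shRNA A over shRNA B was -0.52. With shRNA A the exact 95% interval lay below the control for 6 of the 7. With shRNA B it lay above the control for 4 and below it for 1, Cox4i1.

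Cox4i1, which codes for the largest nuclear subunit and had the highest CPM of complex IV, had 4843 reads with Tead4 shRNA A, 4771 with Tead4 shRNA B and 5353 with control shRNA, or 240.7 CPM with shRNA A, 302.8 with shRNA B and 333.4 in the control. Its log2 fold change was -0.30 (SE 0.24, adjusted p = 0.541, edgeR), and it overlaps an exon of Emc8, listed here as Cox4nb. Cox6b1, a subunit that joins the monomers of the enzyme, had 2276 reads with shRNA A, 2556 with shRNA B and 2418 in the control. Its log2 ratios to the control were -0.41 in the shRNA A library (-0.50 to -0.33) and 0.11 in the shRNA B library (0.03 to 0.19). Cox5a, a subunit on the matrix side, had log2 ratios of -0.45 in shRNA A and 0.17 in shRNA B, and 22.6% of its 72-base stretches are shared. Cox7a2l, which shares sequence with subunit VIIa and helps to join complexes III and IV into supercomplexes, had 2095 reads with shRNA A, 1834 with shRNA B and 1927 in the control and a log2 fold change of -0.12 (adjusted p = 0.825, edgeR). Of Cox4i2, the lung isoform of subunit IV, the 0 reads in each library allow a share of the Cox4i1 and Cox4i2 reads of up to 0.0619%, 0.0629% and 0.0560% in shRNA A, shRNA B and control.

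**Figure D4:**
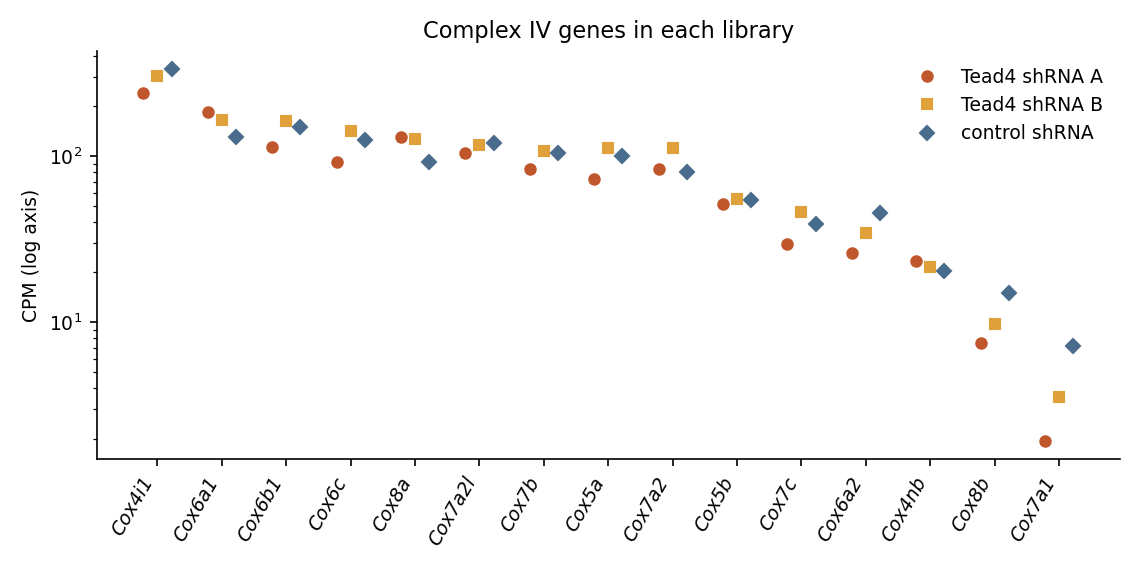
Level of each of the 15 complex IV members in CPM (log axis) in the Tead4 shRNA A, Tead4 shRNA B and control shRNA libraries, 1 library each, ordered by mean level. The control symbol is the highest of the 3 for Cox6a2, Cox8b, Cox7a1, Cox4i1 and Cox7a2l, and the lowest for Cox6a1, Cox8a, Cox7a2 and Cox4nb.

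Complex V, the ATP synthase, had medians over 17 genes of -0.18 for Tead4 shRNA A over control, 0.10 for Tead4 shRNA B over control and -0.25 for shRNA A over shRNA B. The 5 genes of the F1 head had -0.12, 0.08 and -0.24 in these comparisons, the 4 of the peripheral stalk -0.12, 0.25 and -0.37, and the 6 of the c-ring and membrane part -0.25, -0.04 and -0.24. All 15 of these genes were lower with shRNA A than with shRNA B. The other 2 of the 17, Atp5s and Atp5sl, code for no subunit of the enzyme. Atp5b, the catalytic beta subunit, had more reads than any other member, with 31601 in shRNA A, 29383 in shRNA B and 29360 in the control. That is 1571 CPM with shRNA A, 1865 with shRNA B and 1828 in the control, and a log2 fold change of -0.09 (adjusted p = 0.891, edgeR).

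Atp5a1, the alpha subunit, had the highest log2 fold change of complex V, with 18465 reads with Tead4 shRNA A, 15511 with Tead4 shRNA B and 12628 with control shRNA. The log2 fold change was 0.27 (SE 0.25, adjusted p = 0.590, edgeR), and the gene overlaps an exon of Haus1. Atp5k, the e subunit of the membrane part, had the lowest, with 305 reads with shRNA A, 291 with shRNA B and 392 in the control and -0.54 as log2 fold change (SE 0.25, adjusted p = 0.201, edgeR). Both knockdown libraries were above the control for Atp5a1 and below it for Atp5k. The c-ring subunit is made from Atp5g1, Atp5g2 and Atp5g3, which code for the same mature protein. Atp5g3 took 79.6% of the reads of the 3 genes with shRNA A (78.6 to 80.5), 83.4% with shRNA B (82.6 to 84.2) and 81.5% in the control (80.5 to 82.4). Its share was lowest with shRNA A and highest with shRNA B, with the control between them. Its log2 ratios to the control were -0.32 in shRNA A and 0.30 in shRNA B. Atp5g1 took 12.6% of these reads with shRNA A, 10.4% with shRNA B and 11.7% in the control. Atp5g2 took 7.85% with shRNA A, 6.15% with shRNA B and 6.78% in the control, and both share over 10% of their 72-base stretches with other genes.

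The rule takes 4 genes that code for no subunit of these complexes, Cox4nb, Atp5s, Atp5sl and Cox7a2l. Without them the 75 remaining members had medians of -0.20 for Tead4 shRNA A over control, 0.10 for Tead4 shRNA B over control and -0.30 for shRNA A over shRNA B. Subunits and a carrier that the symbols miss were looked at in the same way. Of 6 such genes, including cytochrome c1 (Cyc1), the carrier cytochrome c (Cycs) and the ATP synthase inhibitor Atpif1, 0 were called in either direction by edgeR, and all 6 were lower with shRNA A than with shRNA B. Cyc1 had 3946 reads with shRNA A, 3703 with shRNA B and 3166 in the control. Atpif1 had 1254 reads with shRNA A, 1085 with shRNA B and 1396 in the control. The medians of the 6 were -0.41 for shRNA A over control and 0.22 for shRNA B over control, and 0 had an unadjusted p under 0.05.

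The subunits encoded in mitochondrial DNA had higher levels with Tead4 shRNA B than in the control, and mixed ones with Tead4 shRNA A. Their 14 rows, with mt-Atp6 listed at 2 identifiers, were above the control in 9 cases with Tead4 shRNA A and in 14 with Tead4 shRNA B. They took 2.09% of reads with Tead4 shRNA A, 2.47% with Tead4 shRNA B and 1.59% with control shRNA. Their median log2 fold change was 0.55, beside -0.04 for the nuclear members. By edgeR 2 of 14 rose, mt-Nd5 (42505 reads with shRNA A, 36053 with shRNA B and 19674 in the control, log2 fold change 0.84, adjusted p = 0.0364) and mt-Nd6 (14087 reads with shRNA A, 12912 with shRNA B and 6860 in the control, 0.83, adjusted p = 0.0392), and 0 fell. Of all tested genes 5.34% rose. Both genes code for complex I subunits. The reads do not mark the strand, and whether reads counted for 1 of these 2 genes came from the other was not tested. Among the 5 rows below the control with shRNA A, mt-Nd3 had 127.6 CPM in the shRNA A library, 422.2 CPM in the shRNA B library and 351.2 CPM in the control library. Likewise mt-Atp8 had 198.0 CPM in the shRNA A library, 403.0 CPM in the shRNA B library and 395.6 CPM in the control library. The 2 rows of mt-Atp6 had log2 ratios of -0.03 and -0.36 for shRNA A over control. Overlaps and shared sequence were looked at for the nuclear members only, and the part of gene length in these mitochondrial values was not tested. The difference between nuclear and mitochondrial medians was not tested.

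Among assembly factors of the complexes, 3 genes were called lower by edgeR and 0 higher, where 4.48% of all tested genes were called lower and 5.34% higher. Whether these factors differ from other genes was not tested. Of 11 tested assembly factors of complex I, 1 fell, Ndufaf4, with 363 reads with Tead4 shRNA A, 351 with Tead4 shRNA B and 613 with control shRNA (log2 fold change -0.92, SE 0.24, adjusted p = 0.0139, edgeR). Of 7 for complexes II and III, 2 fell. Acn9, a factor for maturation of succinate dehydrogenase, had 40 reads with shRNA A, 43 with shRNA B and 143 in the control (-1.92, SE 0.39, adjusted p = 0.00247, edgeR). Uqcc, an assembly factor of complex III, had 1000 reads with shRNA A, 933 with shRNA B and 1483 in the control (-0.76, SE 0.22, adjusted p = 0.0254, edgeR). For each of the 3 genes both knockdown libraries were below the control. DESeq2 called 0 of the complex I factors and 1 of those of complexes II and III. Of 11 factors of complex IV and 3 of complex V, 0 were called by edgeR or DESeq2 in either direction, and 1, Fam36a of complex IV, had an unadjusted p under 0.05, on the higher side. Among complex IV factors Lrpprc (2076 reads with shRNA A, 1712 with shRNA B and 1918 in the control) and Cox15 (1158 reads with shRNA A, 992 with shRNA B and 909 in the control) had adjusted p of 0.733 and 0.876, and among complex V factors Tmem70 (796 reads with shRNA A, 728 with shRNA B and 917 in the control) and Atpaf2 (527 reads with shRNA A, 375 with shRNA B and 445 in the control) had 0.297 and 0.80.

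Among 15 regulators of mitochondrial biogenesis, 2 fell and 0 rose by edgeR, where 4.48% of all tested genes fell and 5.34% rose. Over the whole list the log2 fold change had a median of -0.40, and DESeq2 called 1 lower and 0 higher. An unadjusted p under 0.05 was found for 4 on the lower side (Esrrg, Tfb2m, Yy1 and Tfb1m) and for 1, Ppargc1a, on the higher side. Esrrg, the estrogen-related receptor gamma, a nuclear receptor that drives oxidative metabolism genes in muscle, had 4 reads with Tead4 shRNA A, 11 with Tead4 shRNA B and 106 with control shRNA (-3.92, SE 0.60, adjusted p = 1.33e-04, edgeR). Tfb2m, a mitochondrial transcription factor, had 455 reads with shRNA A, 407 with shRNA B and 726 in the control (-0.90, SE 0.23, adjusted p = 0.0133, edgeR). Both genes were below the control in each knockdown library. Among genes of the factors named above with the promoter motifs, Tead4 and Esrrg were called lower, and Nrf1, Gabpa and Esrra were not called. Esrra, another estrogen-related receptor gene, had 672 reads with shRNA A, 815 with shRNA B and 840 in the control (-0.30, adjusted p = 0.554, edgeR). Nrf1 had 541 reads with shRNA A, 410 with shRNA B and 424 in the control (0.00, adjusted p = 0.997, edgeR), and Gabpa, a subunit of GABP, had 1926 reads with shRNA A, 1460 with shRNA B and 1992 in the control (-0.40, adjusted p = 0.306, edgeR). The coactivator gene Ppargc1a had 40 reads with shRNA A, 42 with shRNA B and 12 in the control (1.62, SE 0.69, adjusted p = 0.159, edgeR).

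Enzymes that feed the chain had, as a group, a median near the control, with single genes to either side of it. Of 18 genes of pyruvate dehydrogenase and the tricarboxylic acid cycle, 0 were called by edgeR or DESeq2 in either direction and 0 had an unadjusted p under 0.05, the median log2 fold change was -0.02, and 16 were lower with Tead4 shRNA A than with Tead4 shRNA B. Of the 18, 4 were above the control with shRNA A and 11 with shRNA B. Their log2 fold changes ranged from -0.38 for Dld to 0.44 for Idh3a. Both knockdown libraries were below the control for Dld and above it for Idh3a. Pdha1 had 8272 reads with shRNA A, 7825 with shRNA B and 9144 in the control (-0.33, adjusted p = 0.486, edgeR). Of 12 proteins of the mitochondrial membranes, 0 were likewise called by edgeR or DESeq2 and 0 had an unadjusted p under 0.05, the median was -0.07, and 10 were lower with shRNA A than with shRNA B. Slc25a4, the muscle ADP/ATP carrier, had 11364 reads with shRNA A, 9116 with shRNA B and 6806 in the control (0.43, adjusted p = 0.326, edgeR), and Slc25a3, the phosphate carrier, had 8545 reads with shRNA A, 8249 with shRNA B and 7739 in the control (-0.02, adjusted p = 0.976, edgeR). The median log2 ratio of shRNA A over shRNA B was -0.24 for the 18 enzymes and -0.26 for the 12 membrane proteins. Among assembly factors and regulators it was nearer to 0 in 4 lists, at -0.03 for complex I factors, -0.07 for complex IV, -0.09 for complex V and -0.09 for the regulators. It was -0.44 for assembly factors of complexes II and III and -0.49 for the 6 subunit and carrier genes with other symbols. The mitochondrially encoded rows had -0.32, the 10 myotube markers -0.26 and the 8 markers of cycling or undifferentiated cells 0.02. Whether it differs between these lists and the members was not tested.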

How the data were processed

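The authors deposited raw read counts per Ensembl gene for 3 libraries of C2C12 cells, and beside them a normalized value. Per the submitters' processing notes, DESeq, Cufflinks 0.8.2, TopHat 1.0.12 and the mm9 build were involved, without a stated role or order. Which program counted reads, and how multi-mapped reads were handled, is not given in the sources used here. Normalized values, as deposited, are a score without a unit of its own, the raw count times 1 factor per library (0.801 for Tead4 shRNA A, 1.02 for Tead4 shRNA B, 1.00 for control shRNA), rounded. Of the values, 0 of 20162 per library differed from the rounded product. All per-sample columns were used.

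Tests on the raw counts used edgeR 4.0.16 under R 4.3.3 (filterByExpr, TMM scaling with factors of 1.01, 1.01 and 0.979 for Tead4 shRNA A, Tead4 shRNA B and control shRNA, the older quasi-likelihood F test, Benjamini-Hochberg adjustment over 14478 genes, threshold 0.05). The 2 Tead4 libraries were set against the 1 control, which leaves 1 residual degree of freedom, and the lone control was assumed to vary like the others. The biological coefficient of variation was 16.4%. SE was computed from the size of the log2 fold change and the F statistic. Ratios of single libraries used TMM-scaled counts with exact (Clopper-Pearson) 95% intervals. The limit for 0 reads was set at 3 counts. Reads are PCR-amplified without molecular identifiers, so intervals and limits cover counting error only. DESeq2 1.42.0 was an alternative.

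Members and lists were chosen with earlier results of these data known, so no p is adjusted over a list. Named are every called member, the isoform families, and in each complex the highest CPM and the highest and lowest fold change. From each list the called genes, up to 4, or 2 of the highest CPM, are named. Some genes that this rule takes are not reported here. Sdhb, Cox5a, the genes past 1.5-fold, Cycs, Nrf1, Gabpa, Esrra, Ppargc1a, Yy1, Tfb1m, mt-Nd3, mt-Atp8, mt-Atp6, Fam36a, Dld and Idh3a were added after values were seen. Transcript lengths, GC content, overlaps and shared 72-base stretches came from a GENCODE annotation of GRCm38, used for no coordinates. A gene's length is the median over its annotated coding transcripts, which include incomplete ones. Marker lists of adipocytes, endothelial cells and macrophages had 1, 0 and 1 tested genes and 0 calls.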

Additional observations from a re-analysis of the deposited data

How the results depend on the processing

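Of 98 alternative values for the counts, medians and shares, 83 stayed within set limits and 15 did not. The limit was 1.5 times for a count, the SD between the 2 shRNA medians (0.21) for the members' median fold change, the members' median counting error for a median ratio of 2 libraries and the exact interval for a share, so a value within it can still differ or change sign. The count of members called lower, 1 with TMM, was 0 under RLE scaling, upper-quartile scaling and DESeq2. Cox7a1 then had an adjusted p of 0.0580, 0.0595 and 0.302. It kept the call under total-count scaling (0.0382), without the low-count filter (0.00539) and with the newer quasi-likelihood method (0.0260). Counts past the 1.5-fold limit moved when it was set at a smaller fold (25% above no change) or at 2-fold. Lower with Tead4 shRNA A than control there were 23 members at the smaller fold and 1 at 2-fold, and higher 3 at the smaller fold. With Tead4 shRNA B, 11 were higher at the smaller fold, and 0 at 2-fold or under RLE scaling. Lower with shRNA B were 4 at the smaller fold, and 1 at 2-fold, under upper-quartile scaling or by total counts. Lower with shRNA A than shRNA B were 34 at the smaller fold and 0 at 2-fold. The members' median log2 fold change, -0.04, was 0.10 without shRNA A and -0.20 without shRNA B, values of 1 library against 1 with no test. It was 0.0069 by total counts, beside 0.06 over all tested genes. The medians of each library kept their sign under the 3 other scalings, which moved the median of all genes by at most 0.06. Leaving out members with shared or overlapping sequence and reading isoform shares from the deposited normalized values were chosen after seeing the data. No paired analysis was possible because each Tead4 shRNA and the control shRNA have 1 library. The 1 control library limits every comparison with it.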
